A study of Mus musculus with 16 samples.

Results

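T cell receptor β chains with hydrophobic residues at both positions 6 and 7 of the CDR3, the complementarity-determining region formed where V, D and J genes join, were examined in tumor-infiltrating T cells. The tumors were subcutaneous KPC.Luc implants, a mouse pancreatic ductal adenocarcinoma (PDAC) line that expresses luciferase. A member was an in-frame rearrangement with a CDR3 of 12 or more residues, counted from the conserved cysteine as residue 1, in which residues 6 and 7 were each alanine, phenylalanine, isoleucine, leucine, methionine, valine, tryptophan or tyrosine. There were 4348 members among 120146 in-frame rearrangements of 12 or more residues, or 3.62%, and among 126344 in-frame rearrangements of any length. Members took 10766 of 507077 templates, the whole-number estimate of starting molecules per rearrangement, or 2.12%.

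Tumors were grown in C57BL/6 mice. By the paper's general regimen, mice received a peptide at 10 µg daily and an antibody at 200 µg every 3 days over 10 days. The paper used female or male mice for subcutaneous KPC.Luc tumors, with more antagonist peptide for males. It does not name the sex of the mice used for receptor sequencing. Control mice received scrambled peptide with isotype IgG, the ANT008 group received ANT008, a peptide antagonist of the vasoactive intestinal peptide receptors (VIP-R), with IgG, the anti-PD-1 group received scrambled peptide with anti-PD-1, and the combination group received ANT008 with anti-PD-1. Each group had 4 samples. The sample titles name T cells. The paper describes magnetic selection on CD90.2, at a purity of 80 to 85%, for its Nanostring work and names no selection for receptor sequencing. No separation of CD4+ and CD8+ cells is named, and a receptor survey holds no marker genes with which the label could be checked.

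The β chain is assembled from V, D and J gene segments, with nucleotides trimmed from the ends and others inserted at the N1 junction, between V and D, and the N2 junction, between D and J. The middle of the CDR3 faces the peptide held by the MHC molecule, and hydrophobic residues at positions 6 and 7 have been associated with self-reactive T cells. The mouse D2 gene can encode tryptophan or leucine among glycines, depending on its reading frame, whereas D1 encodes mostly glycine with polar or charged residues.

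In-frame templates per sample ranged from 7180 to 72588 and in-frame rearrangements from 2526 to 13939, which gave 72 to 496 members per sample. The precision of a member share therefore differed between samples. In ANT008 replicate 3, with the fewest members, 72 members made 2.79% of rearrangements with a 95% Wilson interval of 2.22 to 3.50%. In combination replicate 1, with the most, 496 members made 3.94% with an interval of 3.62 to 4.30%. These intervals cover counting error only.

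The sequences of 4 members are shown because each took the largest share of its sample's in-frame templates of any member in its group. They are printed 5′ to 3′ over the CDR3, with codons 6 and 7, which encode the residue pair in the name, in capitals, and the read ends before the codon of the last residue.
Valine-tryptophan member of TCRBV05-01 and TCRBJ02-02, control replicate 2: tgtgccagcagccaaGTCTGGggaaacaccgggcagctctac
Valine-tryptophan member of TCRBV16-01 and TCRBJ02-01, ANT008 replicate 4: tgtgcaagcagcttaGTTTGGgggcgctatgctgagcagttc
Alanine-alanine member of TCRBV13-01 and TCRBJ01-04, anti-PD-1 replicate 1: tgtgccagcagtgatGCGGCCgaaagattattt
Alanine-tryptophan member of TCRBV19-01 and TCRBJ02-07, combination replicate 2: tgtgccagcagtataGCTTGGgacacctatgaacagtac

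A further 3 CDR3s are shown because they were, with the alanine-alanine CDR3 of TCRBV13-01 and TCRBJ01-04 above, the member CDR3 amino acid sequences found in most samples. Each could be encoded by several nucleotide rearrangements, of which the one with the most templates in a single sample is given.
Alanine-alanine CDR3 of TCRBV13-01 and TCRBJ02-03, in 15 samples: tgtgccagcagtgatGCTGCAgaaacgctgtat
Tyrosine-tryptophan CDR3 of TCRBV12-01 and TCRBJ02-01, in 10 samples: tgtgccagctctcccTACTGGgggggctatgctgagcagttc
Tyrosine-tryptophan CDR3 of TCRBJ02-01, in 7 samples, shown with TCRBV15-01: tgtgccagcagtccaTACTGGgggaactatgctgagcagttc
Tryptophan, from a TGG codon followed by guanine, stood at residue 7 in 5 of these 7 members, and alanine stood at both residues in 2.

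The member share of unique rearrangements lay within a narrow range in all groups. It was 3.52% ± 0.401 in control, 3.24% ± 0.307 in ANT008, 3.58% ± 0.178 in anti-PD-1 and 3.69% ± 0.371 in combination tumors (mean ± SD, n = 4 each). Control samples held 3.00, 3.47, 3.63 and 3.97%, and ANT008 samples 2.79, 3.31, 3.35 and 3.50%. Anti-PD-1 samples held 3.32, 3.63, 3.65 and 3.72%, and combination samples 3.15, 3.73, 3.93 and 3.94%. All 4 ANT008 samples lay below the control mean, but 3 of them lay within the control range.

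The differences from control were smaller than the spread between mice. The ANT008 difference was -0.28 percentage points (95% interval from the pooled variance -0.78 to 0.22, two-sided exact permutation form of Dunnett's comparison p = 0.495). The anti-PD-1 difference was 0.06 points (-0.44 to 0.56, exact p = 0.987) and the combination difference 0.17 points (-0.33 to 0.67, exact p = 0.802). The interaction of ANT008 and anti-PD-1 was 0.39 points (-0.32 to 1.10, exact permutation p = 0.261). The 3 comparisons share the control samples, and all 11 treatment and interaction tests had a Benjamini-Hochberg adjusted p of 0.987.

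**Figure D1:**
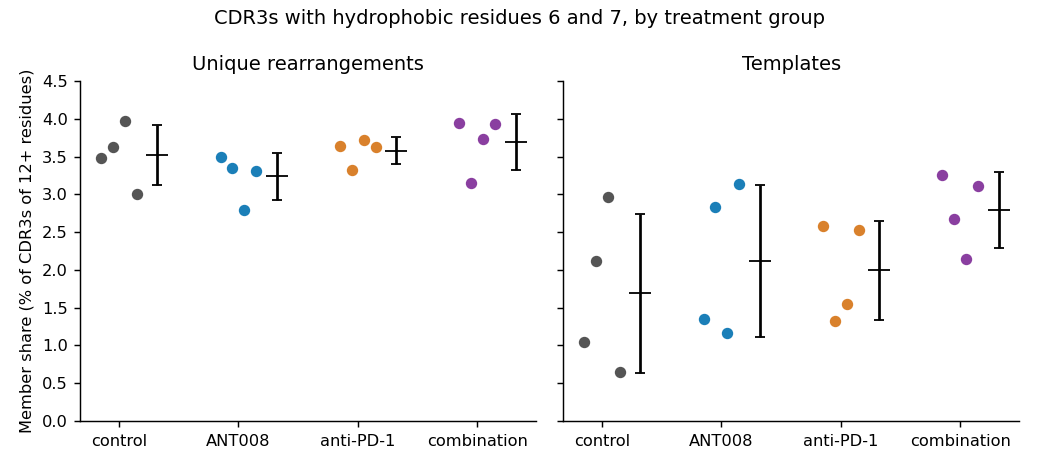
Member share, in percent, of unique rearrangements (left) and of templates (right) with a CDR3 of 12 or more residues. Each point is 1 sample, the bar is the mean and the whiskers the SD of 4 samples; the unique share stays between 2.79 and 3.97% and the template share spreads from 0.642 to 3.25%, with overlapping groups.

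The template share varied more. It averaged 1.69% ± 1.05 in control, 2.12% ± 1.01 in ANT008, 1.99% ± 0.654 in anti-PD-1 and 2.80% ± 0.50 in combination tumors (SD, n = 4 each). Control samples held 0.642, 1.04, 2.11 and 2.96% and combination samples 2.14, 2.67, 3.12 and 3.25%. The combination values exceeded the control mean in 4 of 4 samples and the highest control in 2, so the groups overlapped. ANT008 samples held 1.16, 1.35, 2.83 and 3.14% and anti-PD-1 samples 1.32, 1.54, 2.53 and 2.58%.

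The combination difference of 1.11 percentage points did not pass the test (95% interval -0.18 to 2.40, exact permutation form of Dunnett's comparison p = 0.201). The differences of ANT008, 0.43 points (-0.86 to 1.72, exact p = 0.799), and anti-PD-1, 0.31 points (-0.98 to 1.59, exact p = 0.914), did not pass either, and the interaction was 0.37 points (-1.45 to 2.19, exact permutation p = 0.674). With alanine and tyrosine taken out of the residue set, the combination difference was -0.10 points. In these bulk samples more cells with a receptor and more molecules per cell cannot be told apart.

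Within samples, members took a smaller share of templates than of unique rearrangements. The template share was 2.15% ± 0.857 and the unique share 3.51% ± 0.339 over the 16 samples, and the template share was lower in 16 of 16. The mean difference was -1.36 percentage points ± 0.727 (SD, range -2.43 to -0.17, exact sign-flip permutation p = 3.05e-05, the smallest these 16 samples can give, adjusted p = 4.36e-05). Without alanine in the residue set the difference was -0.78 points (exact sign-flip p = 0.000153). The sign-flip test assumes differences that are symmetric about 0, whereas a template share is set by a few large clones and is skewed. Hydrophobic residues at positions 7 and 8, a neighboring pair taken for comparison after the values were seen, made up 3.29% ± 0.301 of rearrangements and 3.24% ± 2.35 of templates, with the template share lower in 12 of 16 samples (exact sign-flip p = 0.940). The template share of residues 6 and 7 did not differ past the threshold from that of residues 7 and 8, at -1.09 points ± 2.82 (exact sign-flip p = 0.160).

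Member share by clone size followed the same direction at the low end. Members made 3.62% ± 0.393 of rearrangements with 1 template, 3.13% ± 0.569 of those with 2 to 9, 3.20% ± 1.06 of those with 10 to 99, and 2.37% ± 2.73 of those with 100 or more. A share of 76.4% ± 7.27 of members had a single template, against 73.8% ± 4.99 of other rearrangements, and it was higher for members in 15 of 16 samples (exact sign-flip p = 0.0138, a comparison chosen after the values were seen). The exception was anti-PD-1 replicate 4, with 55.2% against 64.7%.

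The share at 10 or more templates was 0.53 percentage points ± 0.883 lower than at 1 template, lower in 11 of 16 samples (exact sign-flip p = 0.0331, adjusted p = 0.0368). This call rested on single samples. It was lost without control replicate 1, 2 or 4, ANT008 replicate 1 or 3, or anti-PD-1 replicate 4, with differences of -0.50 to -0.45 points and exact sign-flip p between 0.0543 and 0.0637. With V genes weighted by their use in members it was -0.22 points (exact sign-flip p = 0.651), and with 13 or more residues it was -1.07 points (exact sign-flip p = 0.000916).

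Between groups, this size contrast averaged -0.99 points ± 0.997 in control, -0.67 ± 1.03 in ANT008, -0.50 ± 0.556 in anti-PD-1 and 0.05 ± 0.878 in combination tumors (SD, n = 4 each). The differences from control were 0.32 points for ANT008 (exact Dunnett permutation p = 0.914), 0.50 for anti-PD-1 (p = 0.760) and 1.04 for the combination (p = 0.272), and none passed.

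**Figure D2:**
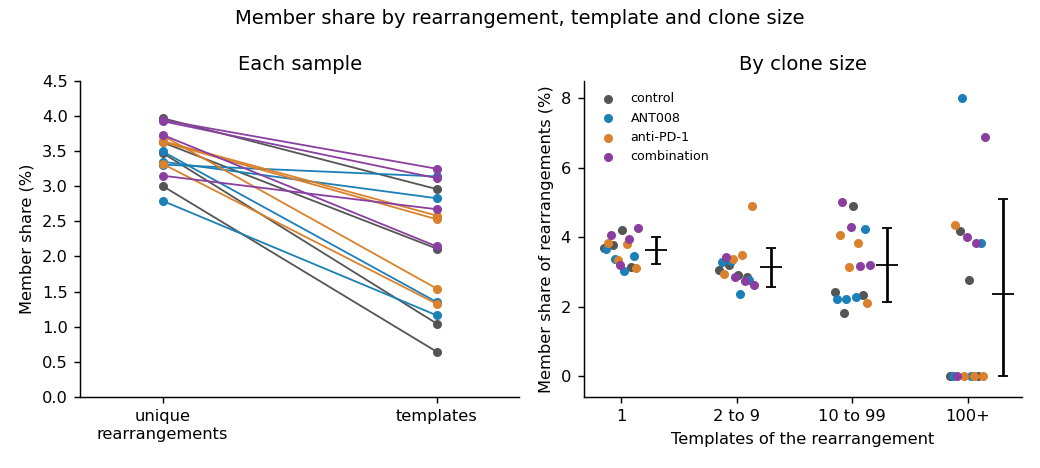
Left, the member share in percent of unique rearrangements and of templates, joined by a line for each sample; all 16 lines fall. Right, the member share of rearrangements in 4 classes of template count, with 1 point per sample and the mean and SD over 16 samples (the lower whisker ends at 0); the share averages 3.62% at 1 template and spreads from 0 to 8% at 100 or more.

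Of 512 rearrangements with 100 or more templates, 12 or 2.34% were members, in 8 of 16 samples, and of 4180 with 10 or more, 136 or 3.25% were, beside 3.62% of all rearrangements. The largest, the valine-tryptophan member of ANT008 replicate 4 shown above, held 304 templates or 1.46% of in-frame templates (95% Wilson interval 1.31 to 1.64%), ranked 9 in its sample and made up 49.0% of that sample's member templates. The alanine-tryptophan member of combination replicate 2 held 210 templates or 0.856%. A valine-alanine member of combination replicate 3, with TCRBV16-01 and TCRBJ01-01, held more templates, 276, but a smaller share of a deeper sample, 0.470%. Of the others shown above, the valine-tryptophan member of control replicate 2 held 189 or 0.458%, and the alanine-alanine member of anti-PD-1 replicate 1 held 176 or 0.547%. In control replicate 4, the sample with the lowest template share, the largest member, a valine-tryptophan CDR3 of TCRBV16-01 and TCRBJ01-03, held 25 templates, or 0.0671%. The most frequent member carried tryptophan at residue 6 or 7 in 6 of the 16 samples.

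Most members were private to 1 sample. Of 3665 distinct member CDR3 amino acid sequences, 3392 were found in 1 sample and 273 in 2 or more, or 7.45%, against 12.5% of all 88881 distinct CDR3s of 12 or more residues. Per sample, 16.9% ± 3.07 of member CDR3s and 30.4% ± 2.62 of other CDR3s were also found in another sample. Sharing ties samples to each other, so it was given no test. Member CDR3s were encoded by 1.06 ± 0.0182 nucleotide rearrangements each within a sample, and others by 1.10 ± 0.0201.

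The most widely shared member was the alanine-alanine CDR3 of TCRBV13-01 and TCRBJ02-03, encoded by 21 nucleotide rearrangements and carried with TCRBJ02-03 and, for 98.1% of its templates, TCRBV13-01. It was found in 15 of 16 samples at 4 to 145 templates. It took up 0.0429 to 0.171% of in-frame templates in control samples, 0.0347 to 0.115% in the 3 ANT008 samples that held it, 0.0138 to 0.306% in anti-PD-1 samples and 0.0733 to 0.401% in combination samples. ANT008 replicate 2 held 0 templates of it, which allows a share of up to 0.00911%. The group ranges overlapped, and its rearrangements carried 1.39 inserted nucleotides on average, with none in 7 of its 41 occurrences.

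The alanine-alanine CDR3 with TCRBJ01-04 was found in 7 samples with 690 templates in all, and it reached 0.592% of in-frame templates in its highest sample. The more widely shared tyrosine-tryptophan CDR3, mostly with TCRBV12-01 and always with TCRBJ02-01, was found in 10 samples at 84 templates in all, and the other in 7 samples at 22 templates, 72.7% of them with TCRBV12-01. The other 6 of the 10 most shared members were found in 5 or 6 samples each. Tryptophan stood at residue 6 or 7 in 7 of the 10, and D2 was the D gene of the most frequent rearrangement of all 7.

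Tryptophan was the most common residue at position 7 of members and alanine at position 6. Over samples, residue 7 was tryptophan in 36.3% ± 3.58 of members, leucine in 20.3% ± 3.74 and alanine in 19.9% ± 5.06. Residue 6 was alanine in 36.2% ± 4.91, valine in 19.2% ± 3.05, tyrosine in 12.6% ± 2.18, leucine in 12.4% ± 2.98 and tryptophan in 12.1% ± 3.34. Tryptophan at either position was present in 2114 members, 47.7% ± 3.59 of a sample's members. Among all CDR3s of 12 or more residues, tryptophan stood at residue 7 in 8.09% ± 0.527 and alanine at residue 6 in 6.30% ± 0.662. These shares follow in part from the rule and were not tested.

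The 10 most common residue pairs were alanine-tryptophan (473 members), tyrosine-tryptophan (447), alanine-leucine (381), valine-tryptophan (358), alanine-alanine (330), tryptophan-valine (202), tryptophan-alanine (191), valine-leucine (186), leucine-tryptophan (146) and leucine-leucine (142). The alanine-alanine pair differed from the other 9 in its D genes and its templates. D2 made up 39.7% of its resolved D genes, against 87.6 to 98.9% in the others. It held 1738 templates, the most of any pair, of which the 2 alanine-alanine CDR3s shown above together held 1276. A single template was held by 70.6% of its members, beside 68.3% for leucine-leucine and 77.2 to 85.6% for the rest of the 10 pairs.

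Members drew the bases of codons 6 and 7 from insertions more and from the D gene less than other CDR3s did. In members 47.9% ± 1.91 of these 6 bases were assigned to the D gene, 28.4% ± 1.65 to the N1 insertion, 9.31% ± 0.890 to the N2 insertion, 8.39% ± 1.11 to V and 6.08% ± 1.08 to J (mean ± SD over 16 samples). In other CDR3s the D gene gave 68.1% ± 0.667 and the N1 insertion 14.0% ± 0.617. All 6 bases lay within the D gene in 0 of 4348 members and in 29.0% of other CDR3s. Of 2147 tryptophan codons at residues 6 and 7 of members, 1985 or 92.5% took at least 2 bases from the D gene. The assignment reads the same bases as the member rule, so these values describe how members were made and were not tested.

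**Figure D3:**
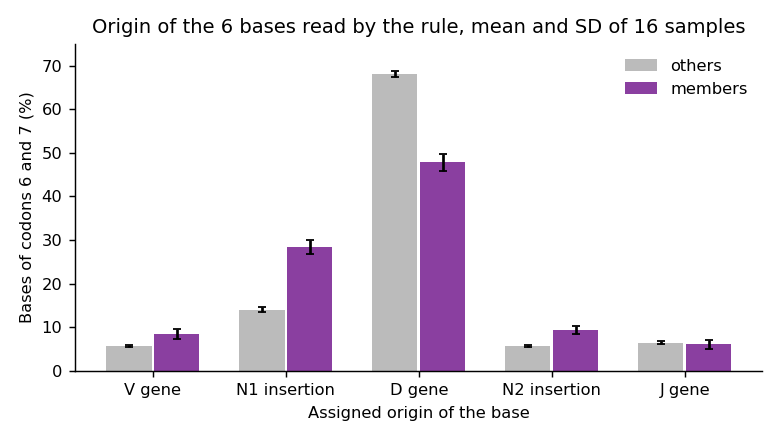
Percent of the bases of codons 6 and 7 assigned to the V gene, N1 insertion, D gene, N2 insertion and J gene, in members and in other CDR3s of 12 or more residues. Bars are means and whiskers SDs of 16 samples; members hold 28.4% of bases in the N1 insertion and 47.9% in the D gene, other CDR3s 14.0% and 68.1%.

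D2 was the D gene of most members. Among rearrangements with a resolved D gene, D2 was used by 84.6% ± 2.83 of members and 47.2% ± 1.13 of other CDR3s, higher in 16 of 16 samples. The D gene is assigned in part from the bases of codons 6 and 7, so this is a description and its p-value is not given. Seen the other way, 6.15% ± 0.595 of D2 rearrangements and 1.05% ± 0.195 of D1 rearrangements were members, and the ranges over samples, 5.11 to 7.13% and 0.773 to 1.38%, did not overlap. The D gene was unresolved in 16.6% of rearrangements, of which 3.39% ± 0.475 were members. D2 made up 96.2% of resolved D genes in members with tryptophan and 72.3% in members without it.

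The J2 cluster lies downstream of D2, so D2 normally joins only to it, whereas D1 can join to either cluster. The assigned D genes did not all follow this order. The largest member of control replicate 4 was assigned D2 with TCRBJ01-03, so some D2 assignments may be wrong. J2 was used by 81.1% ± 3.19 of members and 67.0% ± 0.826 of other CDR3s, higher in 16 of 16 samples (exact sign-flip p = 3.05e-05, adjusted p = 4.36e-05). With D1 rearrangements alone the difference turned to -3.27 points, at 44.4% ± 10.3 in members and 47.7% ± 1.27 in others (exact sign-flip p = 0.240). With J2 rearrangements alone the D2 difference remained, at 91.9% ± 2.44 against 63.7% ± 1.55, higher in 16 of 16 samples. Both restrictions were chosen after the values were seen. The J2 share goes with D2, whose assignment reads the bases of the rule, so the p-value of the J2 difference is a description.

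Members were longer, held more inserted nucleotides and had lost fewer V nucleotides. CDR3 length was 14.44 ± 0.0844 residues in members and 14.16 ± 0.0583 in other CDR3s of 12 or more residues. Inserted nucleotides, N1 and N2 together, averaged 4.18 ± 0.179 in members and 3.61 ± 0.0690 in others. Nucleotides trimmed from the V gene averaged 1.49 ± 0.107 in members and 2.59 ± 0.0379 in others. Each difference held in 16 of 16 samples. The length difference had an exact sign-flip p of 3.05e-05, the smallest these samples allow (adjusted p = 4.36e-05). Length bears on which bases fall at codons 6 and 7, and residue 7 was hydrophobic in 18.2% of CDR3s of 12 residues and 29.7% of those of 16. The p-value of length is therefore a description. Insertions and V trimming are assigned in part from the bases of codons 6 and 7, and their p-values are not given.

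**Figure D4:**
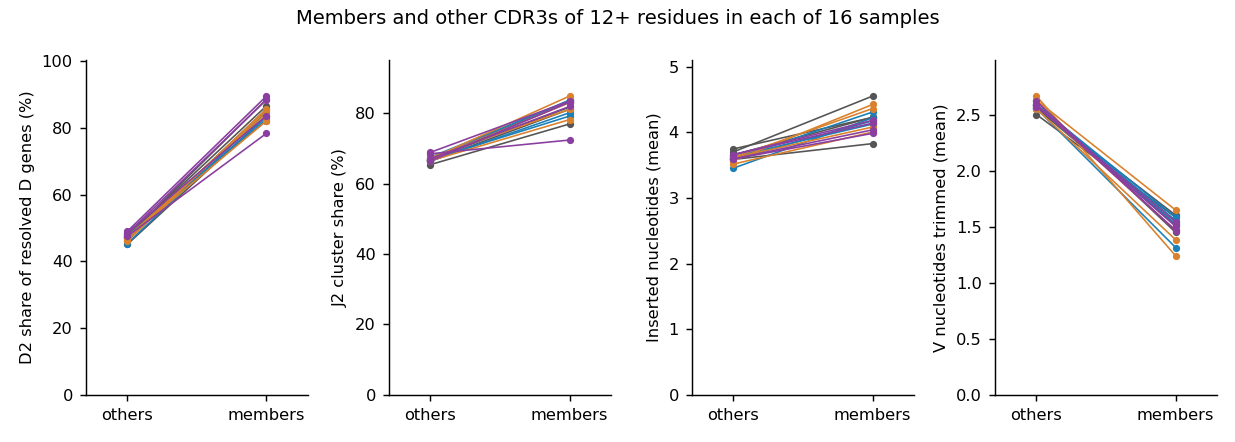
D2 share of resolved D genes (%), J2 cluster share (%), mean inserted nucleotides and mean V nucleotides trimmed, in other CDR3s of 12 or more residues and in members. Each line is 1 of 16 samples, colored by treatment group as in the plot of clone size; all lines rise for the first 3 measures and fall for V trimming, and the shallowest J2 line, 3.90 points, is combination replicate 2.

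The member share was higher in longer CDR3s within the range of the rule, which was not tested apart from the length difference above. It was 2.76% ± 0.680 at 12 residues, 2.72% ± 0.499 at 13, 3.23% ± 0.498 at 14, 3.93% ± 0.462 at 15 and 5.15% ± 0.845 at 16 residues (SD over 16 samples). At 17 residues it was 4.47% ± 1.92, with 184 members. Just outside the rule, at 11 residues, 8.03% ± 1.88 of 4551 rearrangements had the same residues at positions 6 and 7, and residue 7 alone was hydrophobic in 35.5% of them.

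In-frame CDR3s held the hydrophobic pair more often than out-of-frame ones, which make no receptor. Out-of-frame rearrangements with a CDR3 of 36 or more nucleotides were read from the same cysteine codon. Those with a stop at codon 6 or 7, 1533 in all, were left out. Of the 61171 used, 3.16% ± 0.354 would carry hydrophobic residues at codons 6 and 7, against 3.51% ± 0.339 of in-frame rearrangements. The difference was 0.34 percentage points ± 0.386, above 0 in 13 of 16 samples (exact sign-flip p = 0.0025, adjusted p = 0.00313). It depended on alanine: without alanine in the residue set it was -0.073 points (exact sign-flip p = 0.326). It also differed by D gene in a split made after the values were seen, at 1.18 points ± 0.585 and above 0 in 16 of 16 samples among D2 rearrangements (6.15% in frame, 4.98% out of frame, exact sign-flip p = 3.05e-05) and -0.18 points ± 0.382 among D1 rearrangements (1.05% and 1.23%, exact sign-flip p = 0.073). The D gene is assigned in part from the bases of codons 6 and 7, so the p-values of this split are a description. With only rearrangements of 2 or more templates of any D gene, the in-frame difference was 0.34 points (exact sign-flip p = 0.106). The in-frame difference was larger with codons 6 and 7 before the J segment (0.67 points, above 0 in 14 of 16 samples, exact sign-flip p = 0.000122) and with 13 or more residues (0.61 points). Weighting V genes by their use in members gave 0.74 points, but that weighting favors V genes with many in-frame members, so this value is a description.

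The 2 hydrophobic residues met less often than their separate frequencies would give. Residue 6 was hydrophobic in 21.9% ± 1.23 of CDR3s and residue 7 in 22.1% ± 0.810. The observed member share divided by the product of both was -0.47 ± 0.0899 on the log2 scale. It was below 0 in 16 of 16 samples (exact sign-flip p = 3.05e-05, adjusted p = 4.36e-05). The observed and the expected share are both made from the residues that the rule reads, so this p-value is a description. Why the residues met less often was not tested. The member share was 0.22 percentage points ± 0.402 above the share with hydrophobic residues 7 and 8, in 13 of 16 samples (exact sign-flip p = 0.0458, adjusted p = 0.0458). That call was lost in 12 of the 16 sets that left out 1 sample (exact sign-flip p up to 0.0859), all but those without control replicate 4 or ANT008 replicate 2, 3 or 4, and with 2 or more templates the difference was -0.61 points (exact sign-flip p = 0.0013). With 13 or more residues it was 0.86 points (exact sign-flip p = 6.1e-05), so its size and direction depended on the setting. Weighting V genes by their use in members gave 1.05 points (exact sign-flip p = 3.05e-05). That weighting favors V genes with many members, so this value is a description.

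Members used V genes unequally. Of 24 V genes tested with edgeR's quasi-likelihood test, 14 or 58.3% differed between members and other CDR3s of the same samples, 4 higher (16.7%) and 10 lower (41.7%). Usage is a share of each class, so a gene used more lowers the others. At least 1 base of codon 6 was assigned to V in 44.5% of members and 23.0% of other CDR3s. V gene usage therefore depends in part on the bases of the rule, and its p-values are a description. TCRBV13-02 (Trbv13-2) was the only V gene with over 10% of members. It was used by 17.8% ± 2.72 of members and 9.71% of others, higher in 16 of 16 samples, with a log2 ratio of 0.92 ± 0.05 (SE, edgeR adjusted p = 4.65e-52). TCRBV13-01 (Trbv13-1), at 9.46% ± 2.13 of members and 6.05% of others, had a log2 ratio of 0.57 ± 0.08 (edgeR adjusted p = 3.50e-12). Without alanine in the residue set both genes were no longer higher, at -0.09 for TCRBV13-02 (edgeR adjusted p = 0.444) and -0.03 for TCRBV13-01 (adjusted p = 0.802).

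Alanine at residue 6 was frequent in members of these genes. It stood there in 65.9% of TCRBV13-02 members and 56.5% of TCRBV13-01 members, against 35.1% of all members. It was also frequent in V genes that members did not use more, at 50.0% in TCRBV13-03 (log2 ratio 0.0013 ± 0.09, edgeR adjusted p = 0.989) and 44.1% in TCRBV15-01 (-0.42 ± 0.16, adjusted p = 0.0152). In 62.7% of TCRBV13-02 members it was encoded with at least 1 base of codon 6 assigned to V, and 71.5% of TCRBV13-02 members had an untrimmed V end, against 27.0% of other TCRBV13-02 CDR3s. TCRBV24-01 (Trbv24) and TCRBV12-01 (Trbv12-1) were also used more, with log2 ratios of 0.52 ± 0.18 (edgeR adjusted p = 0.00742) and 0.41 ± 0.08 (adjusted p = 8.90e-07). By templates neither passed (edgeR adjusted p = 0.067 and 0.190), and without alanine both were higher, at 1.19 and 0.86. Alanine stood at residue 6 in 2.04% of TCRBV24-01 members, and at least 2 bases of codon 6 were assigned to V in 69.4% of them.

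The V gene used least by members relative to other CDR3s, among those that passed, was TCRBV29-01 (Trbv29), at 2.33% ± 0.991 of members and 4.85% of others, lower in 16 of 16 samples with a log2 ratio of -1.03 ± 0.13 (edgeR adjusted p = 3.35e-13). TCRBV05-01 (Trbv5) and TCRBV02-01 (Trbv2) were lower in 16 of 16 samples as well, at -0.75 ± 0.10 and -0.74 ± 0.12. TCRBV26-01 (Trbv26) was at -0.73 ± 0.17, TCRBV20-01 (Trbv20) at -0.58 ± 0.17 and TCRBV23-01 (Trbv23) at -0.85 ± 0.36. TCRBV23-01, with 16 members in all, no longer passed without control replicate 2, anti-PD-1 replicate 2 or 3, or combination replicate 1 or 2 (log2 ratio -0.82 to -0.65), by TMM, by templates or without alanine. Without alanine TCRBV26-01 was at -0.17 (edgeR adjusted p = 0.478), and by templates TCRBV20-01 did not pass (adjusted p = 0.158). The share of a V gene's rearrangements that were members ranged from 6.29% ± 1.16 in TCRBV13-02 to 1.72% ± 0.762 in TCRBV29-01 among the named genes.

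**Figure D5:**
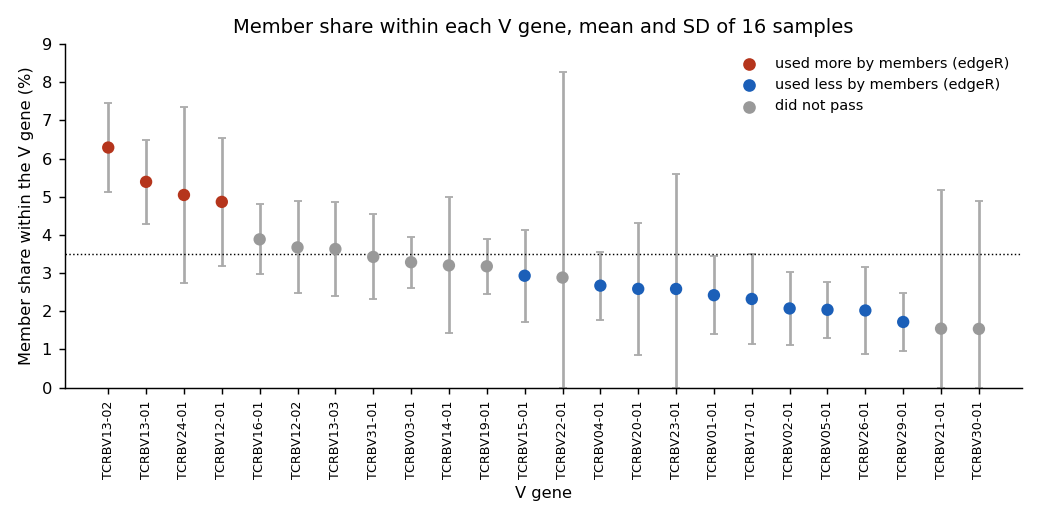
Percent of the rearrangements of each V gene that were members, as the mean and SD of 16 samples (lower whiskers end at 0), in descending order, for the 24 V genes tested. Red and blue points mark genes used more and less by members in the edgeR test, and the dotted line marks the mean member share of all rearrangements, 3.51%; TCRBV13-02 is highest, and genes with few rearrangements have wide whiskers.

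J genes split by cluster. Of 12 J genes tested with edgeR, 11 or 91.7% differed, 5 higher (41.7%) and 6 lower (50.0%). All 5 higher genes were of the J2 cluster and all 6 lower ones of the J1 cluster. The J2 cluster goes with D2, whose assignment reads the bases of the rule, and J itself gave bases of codons 6 and 7 in some members. J gene usage therefore depends in part on the rule, and its p-values are a description. TCRBJ02-01 (Trbj2-1) was used by 18.2% ± 2.86 of members and 13.1% of others, with a log2 ratio of 0.53 ± 0.05 (edgeR adjusted p = 4.27e-19). TCRBJ02-03 (Trbj2-3), TCRBJ02-05 (Trbj2-5), TCRBJ02-04 (Trbj2-4) and TCRBJ02-07 (Trbj2-7) were at 0.39 ± 0.07, 0.35 ± 0.06, 0.24 ± 0.08 and 0.14 ± 0.04. Without alanine TCRBJ02-03 was at 0.15 (edgeR adjusted p = 0.163), and by TMM TCRBJ02-04 and TCRBJ02-07 were at 0.42 and 0.32. Counted by templates TCRBJ02-07 turned to -0.55 (edgeR adjusted p = 0.00622).

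TCRBJ01-05 (Trbj1-5) had the lowest log2 ratio, -1.63 ± 0.20 (edgeR adjusted p = 2.44e-13), at 1.01% ± 0.647 of members and 3.24% of others. TCRBJ01-03, TCRBJ01-01, TCRBJ01-06, TCRBJ01-02 and TCRBJ01-04 followed at -1.04, -0.90, -0.85, -0.79 and -0.54. Without alanine TCRBJ01-01, TCRBJ01-02 and TCRBJ01-04 were at -2.08, -2.17 and -1.12. By templates only 4 J genes were called, 1 higher and 3 lower.

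No V gene's member share passed the test between a treatment and control. The edgeR test on the number of members within each V gene called 0 of 24 (0.0%) in each of the 3 comparisons, with 1 gene for ANT008, 1 for anti-PD-1 and 2 for the combination at an unadjusted p under 0.05, and DESeq2 called 0 in each. In TCRBV13-02 the member share averaged 5.59% ± 0.918 in control, 5.91% ± 1.39 in ANT008, 6.77% ± 0.596 in anti-PD-1 and 6.88% ± 1.40 in combination samples (SD, n = 4). TCRBV02-01 had the lowest unadjusted p, for anti-PD-1, with a log2 difference of -1.12 ± 0.39 (SE, edgeR adjusted p = 0.0969). It passed without control replicate 4 (-1.25, edgeR adjusted p = 0.0321) or without anti-PD-1 replicate 2 (-1.38, adjusted p = 0.0292).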

How the data were processed

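TCRβ CDR3 regions were surveyed by Adaptive Biotechnologies with the mouse immunoSEQ assay in 16 samples, 4 in each of 4 groups taken from the labels. The deposited template counts are whole numbers per unique 87-nucleotide rearrangement, estimated by the service with correction for primer amplification, and samples were not pooled. Per the file headers, each entry also gives gene segments, trimming, insertions and positions in nucleotides. Labels name RNA whereas DNA is also named in the study's text, so a template may be a transcript and not a cell. The aligner, its version and the genome build are not given in the sources used here. No reads were listed in any of the 16 samples.

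Codons 6 and 7 were read from the nucleotide sequence at the deposited V position and equalled the listed residues in 100% of in-frame entries. The 333 in-frame entries without a first cysteine were left out, 5 of which would otherwise be members. V names (27 of 27) and J names (13 of 13) matched symbols of the GRCm38.p6 annotation. V genes were unresolved in 0.0683% of entries.

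Treatments were compared with control by Dunnett's comparison, which the study used, with p-values taken by exact permutation over 63063000 ordered assignments, with 0.0286 the smallest raw exact p for 4 against 4. Interactions used 12870 splits. Members and other CDR3s were compared within samples by sign flips over 65536 assignments, adjusted over 10 tests, two-sided. Of these, the tests of D gene, insertions and V trimming are given as descriptions because the assignments read the bases of the rule. The test of length is a description because length bears on which bases the rule reads. All 10 tests, these among them, entered the adjustment. The test of the J2 cluster is a description as well, because D2 normally joins only to J2. V and J genes with at least 100 entries were tested by quasi-likelihood in edgeR on numbers of unique rearrangements, with the sample as a block and an adjusted p threshold of 0.05. Nothing states that samples of a group were processed apart, so exact p-values measure the spread between these samples. The edgeR p-values also use a spread pooled over genes and can fall far below 3.05e-05, the smallest sign-flip p. The members, lists and tests were chosen with earlier results of these data known. Named genes were up to 6 past the threshold with the largest change in each direction, plus V genes with 10% or more of members; named clones were the most frequent member of each sample and the 10 CDR3s found in most samples; named pairs were the 10 most common.

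Alternatives were other residue sets, a 13-residue minimum, all in-frame entries, 2 or more templates, standardised V gene and length make-up, equal depth of 7166 templates, other clone sizes, TMM and DESeq2, and leaving out each sample. The scripts were tested on simulated data. Tools were Python 3.11.15, numpy 2.4.6, pandas 2.3.3, scipy 1.17.1, numba 0.67.0, matplotlib 3.10.9, R 4.3.3, edgeR 4.0.16 and DESeq2 1.42.0.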

Additional observations from a re-analysis of the deposited data

Results flagged for a closer look

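In 13 measures checked in 4 groups, 2 of 52 sets of 4 samples held a sample far from the others, where chance gives about 1 in 20. The log2 ratio of observed to expected member share was -0.32 in control replicate 3, nearer to 0 than in the other control samples. The J2 cluster share was 3.90 percentage points higher in members than in other CDR3s in combination replicate 2, the smallest such difference of the 16 samples.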

How the results depend on the processing

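All 292 treatment and interaction p-values for member shares and clone size under the alternatives stayed above 0.05, the lowest being 0.0568. V gene tests between treatment and control are not counted there. TCRBV02-01 passed for anti-PD-1 without control replicate 4 or anti-PD-1 replicate 2 (edgeR adjusted p = 0.0321 and 0.0292). TCRBV22-01, with 5 members in all and a member share of 0% in combination samples, passed for the combination by templates (edgeR adjusted p = 0.0153). For named V and J genes, 418 of 441 values kept their direction and their side of the threshold. Differences that had not passed turned direction in several settings. Without alanine, the anti-PD-1 difference in unique share was -0.013 percentage points and the interaction on template share -0.17. Without alanine and tyrosine, the anti-PD-1 difference in unique share was -0.047, the template share differences were -0.11 for anti-PD-1 and -0.10 for the combination, the interaction on template share was -0.052, and the clone size differences were -0.30 for ANT008 and -0.25 for the combination. With 13 or more residues, the ANT008 clone size difference was -0.083. At equal depth, the anti-PD-1 clone size difference was -1.03. With unique CDR3 amino acid sequences, the anti-PD-1 difference in unique share was -0.0037. With 20 or more templates as large, the clone size differences were -0.18 for ANT008 and -0.23 for anti-PD-1, and with the 100 most frequent rearrangements -1.32 for anti-PD-1. The cause was not tested.

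Within samples, the in-frame minus out-of-frame difference was 0.34 with 2 or more templates, -0.073 without alanine and -0.18 in D1 rearrangements. The residues 6 and 7 minus residues 7 and 8 difference was -0.61 with 2 or more templates and 0.086 without alanine. The difference between 10 or more and 1 template was -0.22 with V genes weighted by their use in members, -0.80 with 20 or more templates and -0.72 for the 100 most frequent. The J2 difference was -3.27 in D1 rearrangements. Without alanine the log2 ratios of TCRBV13-02 and TCRBV13-01 were -0.093 and -0.033, and by templates TCRBJ02-07 was at -0.55, 4 J genes were called, and 1 V gene, TCRBV22-01, was called for the combination. The cause was not tested.

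Leaving out 1 sample at a time gave ranges, in the order ANT008, anti-PD-1, combination, of -0.45 to -0.13, -0.11 to 0.21 and -0.0014 to 0.35 for unique share, 0.08 to 0.85, -0.044 to 0.73 and 0.76 to 1.53 for template share, -0.14 to 0.81, 0.26 to 0.99 and 0.71 to 1.53 for clone size. Interactions ranged from 0.24 to 0.57 for unique and -0.054 to 0.72 for template share. Within samples, the template minus unique share ranged from -1.44 to -1.29, the 10 or more minus 1 template share ranged from -0.63 to -0.45, the in-frame minus out-of-frame share ranged from 0.28 to 0.39, the residues 6 and 7 minus 7 and 8 share ranged from 0.19 to 0.30. V genes called for members ranged from 12 to 15, J genes stayed at 11, and V genes called for anti-PD-1 ranged from 0 to 1. Replicate numbers did not pair the samples: same-numbered samples correlated in V gene deviations with r from -0.46 to 0.52 in 24 pairs, 5 of 16 samples correlated best with their own number, and names inside the files carry other numbers than the labels. With the replicate number as a block, the combination difference in template share was 1.11 (exact permutation p = 0.288), the block p-values ran from 0.288 to 0.989, and V genes called stayed at 0. Each sample held 0 to 2 members of 100 or more templates.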
